A study of Mus musculus with 8 samples.

Results

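Deletion of the zinc finger gene Zfx was examined in mouse embryonic stem cells (ESC), by comparing 2 arrays of Zfx-null ESC with 2 arrays of Zfx-flox ESC, called null and control cells below, with arrays numbered as in the labels. Zfx-flox cells carry a segment of the gene between loxP sites, and Zfx-null cells have lost that segment. Per the labels, both groups were clones cultured on gelatin with no feeder layer, in medium with Knockout serum replacement (15%) and the self-renewal cytokine LIF, and their RNA was amplified once before labelling. The 4 arrays belong to a series of 8, whose other 4 arrays, from marrow stem cells (HSC) with and without Zfx, served here to pool the spread between arrays and, with the ESC arrays, to choose each gene's probe set. All probe sets except controls were used, which gave 18193 named genes, of which 12676 were bright enough in ESC to be tested. The labels do not say how many clones were used or whether the arrays of a group came from separate cultures. The series' design text speaks of duplicate hybridization, so p-values measure only the spread between these arrays, which may be technical. Differences between clones cannot be told apart from the loss of Zfx. Each array read a whole culture, so fewer cells of a type and less RNA per cell cannot be told apart either.

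Zfx is an X-linked transcription factor with a long acidic activation domain and a row of zinc fingers that bind DNA, and its paralogs are Zfy on the Y chromosome and Zfp711 on the X. It is known for its part in the self-renewal of embryonic and blood stem cells, and it binds near the start sites of many active genes at sites with the core letters AGGCCT. ESC kept in LIF hold a pluripotent state through Pou5f1, Nanog, Sox2 and a ring of naive factors, and divide fast with a short G1 phase. Naive factors are lowered when cells leave that state.

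The ESC identity markers were present in both groups. All 13 were tested, and their summed signal was 41082 and 42990 in control cells against 26920.0 and 27708 in null cells. Each of the 13 had a negative log2 change and 6 of them passed the test. The core factor Pou5f1 read 3220.0 and 3466 in control cells against 1361 and 2010.4 in null cells (log2 change −1.01 ± 0.26, adjusted p = 0.0237). Nanog read 2557 and 2697 in the controls and 1548 and 1661 in the null cells (log2 change −0.71 ± 0.11, adjusted p = 0.00295). Sox2, the DNA-binding partner of Pou5f1, read 3306 and 3149 in the controls and 2774 and 2618 in the null cells (log2 change −0.26 ± 0.17, adjusted p = 0.313). Of 11 tested neural markers 4 were higher and 2 lower (median 0.72). The summed signal of all 14 on the array was 5108 and 5161 in control cells against 9522 and 9750.5 in null cells. Sox11, a factor of neural progenitors, rose by 1.55 ± 0.12, whereas the early neural factors Sox1 (−1 ± 0.22) and Pax6 (−0.69 ± 0.21) fell. The 2 falls lost the call without control array 1 (adjusted p = 0.0513 and 0.129) or null array 2 (0.0653 and 0.142), and without a pseudocount 2 neural markers were higher. Pax6 lost it under 13 of 18 alternatives in all, among them control array 2 (0.157) or null array 1 (0.138) left out, and Sox1 also with a smaller pseudocount (0.0621) or none (0.198). Of 10 tested endoderm markers 2 were higher (20%) and none lower, and the larger rise was that of the endocytic adaptor Dab2 (1.46 ± 0.14). The other was that of the laminin chain Lamb1, from 1730 and 1754 to 3222 and 3284 (0.90 ± 0.14). The median of the 10 was −0.06, with 5 changes positive and 5 negative. The summed signal of all 16 on the array was 3388 and 3310.5 in control cells against 5492 and 5489 in null cells. Of 8 mesoderm markers 1 was higher and 1 lower (12.5% each), and of 7 trophoblast markers none passed. Over all tested genes 14.9% were higher and 14% lower, so the mesoderm counts are near the common share. The endoderm count of higher genes is not far from it. The part of such cells in the other results was not tested. The 4 ESC arrays were alike in quality, with a median signal of 63.2 to 66.3. Their correlation on the log2 scale was 0.980 and 0.981 between arrays of 1 group against 0.965 to 0.971 between groups. Their 5′ over 3′ ratio at the Gapdh control probes, on the log2 scale, was 0.377 to 0.437. The HSC arrays, which entered the fit, differed, with a median signal of 38.2 to 47.0 and a Gapdh ratio of −4.68 to −4.18. The call of Pou5f1 was lost without control array 1 (adjusted p = 0.0894), control array 2 (0.116) or null array 1 (0.148), without a pseudocount (0.342), with a smaller one (0.131) and without the variance trend (0.0693). The count of lower ESC markers was 3 without control array 2 or null array 1 and 2 without a pseudocount.

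Zfx itself gave probe-dependent readings. A probe set annotated to Zfx and the pseudogene Zfa-ps read 285 and 298 in control cells against 1.32 and 0.878 in null cells, with a log2 change of −4.32 ± 0.24 (± is the standard error of the fit throughout; limma adjusted p = 4.23e-05). Its values in null cells lie under the pseudocount of 14.2 that was added to every value before taking logarithms, so the size of that change is set by the pseudocount. Of 6 further Zfx probe sets, 5 rose, by 0.79 to 1.65, and the last did not pass (−0.12, adjusted p = 0.785). The labels do not place these probe sets relative to the deleted segment. The paralog Zfp711 rose from 20.4 and 33.0 to 191 and 150.2 (log2 change 2.18 ± 0.27, adjusted p = 0.000894).

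Of the 12676 genes tested, 3665 (28.9%) passed an adjusted p of 0.05, 1894 higher (14.9%) and 1771 lower (14%) in Zfx-null ESC. The rises were larger than the falls. The median change was 0.68 among the higher genes and −0.52 among the lower ones, 494 rose and 172 fell at least 2-fold, and 17 rose and 9 fell at least 4-fold. Among the lower genes 1060 changed by less than 1.5-fold, against 790 among the higher. Over all tested genes the median was −0.03 and the 10th and 90th percentiles were −0.52 and 0.61. The arrays of the groups did not overlap for any of the 3665 genes, but the same held for 8173 of all tested genes (64.5%).

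The balance of rises and falls moved with signal. With the tested genes divided into 5 equal groups by signal, in the dimmest group 5.48% rose and 3.63% fell, with a median standard error of 0.263. In the brightest group 19% rose and 24.8% fell, with a median standard error of 0.0759, so smaller changes passed there. Rises of at least 2-fold outnumbered falls in all 5 groups, at 78 against 41 in the dimmest and 86 against 20 in the brightest. Among the 748 genes whose group mean exceeded the 95th percentile (a signal of 2550), 133 rose and 228 fell. Without control array 1 or control array 2 the count of lower genes over all tested genes was 1055 and 1116, a larger loss than that of the higher genes (1453 and 1431).

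**Figure D1:**
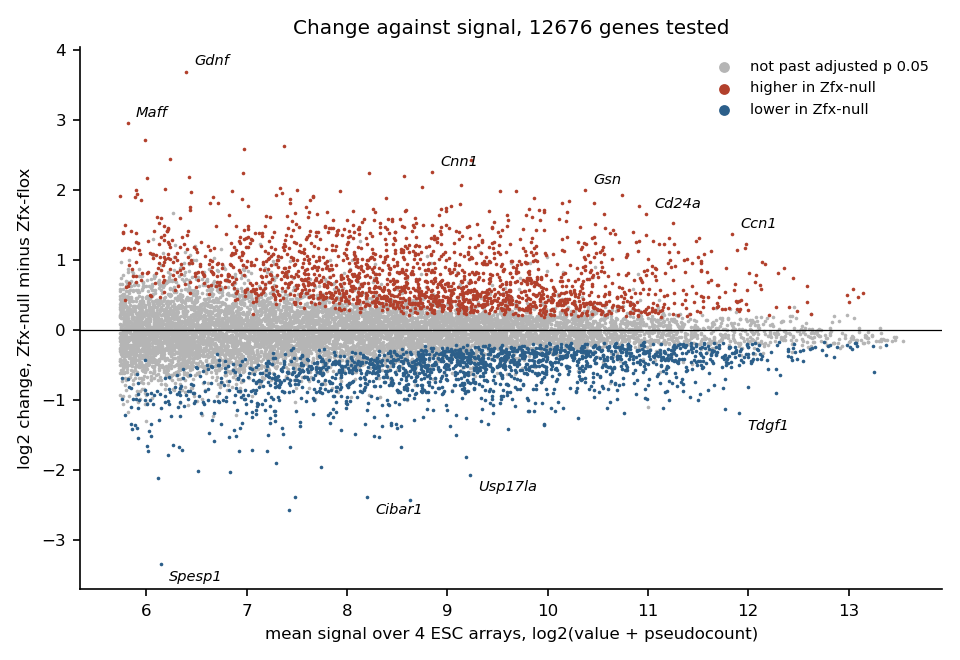
Log2 change (Zfx-null minus Zfx-flox) of each of 12676 tested genes against its mean log2 signal over the 4 ESC arrays, coloured by call at an adjusted p of 0.05. The 494 rises and 172 falls of at least 2-fold spread over all signal levels, and most called changes of bright genes are under 2-fold in both directions.

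The largest rises among genes with all 4 values above the pseudocount included the following. Ifi202b, an interferon-inducible DNA-binding protein, read 59.4 and 46.2 in control cells against 429 and 369.8 in null cells (log2 change 2.63 ± 0.15, adjusted p = 4.59e-05). Papss2, which makes the sulfate donor for matrix proteoglycans, read 44.9 and 30.5 in control cells against 303 and 287 in null cells (log2 change 2.59 ± 0.22, adjusted p = 0.000171). Both genes were below 60 on every Zfx-flox array and at 287 or more on the Zfx-null arrays. The neuropeptide precursor Vgf read 219 and 277 in the controls and 1215 and 1564 in the null cells (log2 change 2.42 ± 0.20, adjusted p = 0.000151), and smooth muscle calponin Cnn1 read 221 and 175 in the controls and 1009 and 979.5 in the null cells (log2 change 2.25 ± 0.19, adjusted p = 0.000174). The soluble pattern receptor Ptx3 rose by 2.24 ± 0.23, the AP-1 subunit Fosl2 by 2.20 ± 0.10, the bZIP factor Maf by 2.06 ± 0.14, Atrnl1 by 2.04 ± 0.14, the growth factor Bmp2 by 2.02 ± 0.30 and Cav2, a coat protein of caveolae, by 2.00 ± 0.14. The glutaminyl cyclase Qpct rose by 1.98 ± 0.28 and the integrin subunit Itgb8 by 1.99 ± 0.24. Mgp rose by 2.24 ± 0.61 (adjusted p = 0.0305), with control arrays far apart at 95.1 and 16.1 and null arrays at 256 and 259. The bZIP repressor Nfil3 (2.44 ± 0.46) and the lipid-binding protein gene Osbpl5 (2.71 ± 0.39) rose by more than Vgf but had a control array below the pseudocount, and Osbpl5 was picked after its values were seen. Every one of these genes read higher on both Zfx-null arrays than on either Zfx-flox array. The same separation held for every called gene and for 64.5% of all tested genes, so it does not set these genes apart. Without a pseudocount Bmp2 did not pass (adjusted p = 0.126).

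2 genes went from below the pseudocount on both Zfx-flox arrays to at least 100 on both Zfx-null arrays. The neurotrophic factor Gdnf read 7.34 and 11.4 in control cells against 291 and 285 in null cells, and the small Maf protein Maff read 5.65 and 6.48 in control cells against 156 and 129.7 in null cells. No gene made the reverse move by that rule, which covered only probe sets with a single gene symbol. The probe set shared by Zfx and Zfa-ps, described above, did make it. The size of the fitted changes of Gdnf and Maff (3.69 and 2.95) depends on the pseudocount.

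Bright genes that rose were led by actin, matrix and membrane proteins. Gsn, the actin-severing protein gelsolin, read 645 and 657 in control cells against 2729 and 2539 in null cells (log2 change 1.99 ± 0.10, adjusted p = 3.7e-05). Cd24a, a surface glycoprotein, read 1117 and 1140.5 in control cells against 3644 and 3517 in null cells (log2 change 1.65 ± 0.05, adjusted p = 1.75e-05), and Wls, which carries Wnt ligands to the cell surface, read 1442 and 1402 in control cells against 4267 and 3943 in null cells (log2 change 1.52 ± 0.07, adjusted p = 3.37e-05). The spread within each group was far below the distance between groups for all 3 genes. The matrix protein Tgfbi (1.82 ± 0.11), the tubulin-binding protein Dpysl2 (1.39 ± 0.07) and the annexin Anxa3 (1.37 ± 0.06) followed.

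Among genes with all 4 values above the pseudocount, 3 of the 6 largest falls were genes of the 2-cell-like list, described with that list. Cibar1, which acts in cilium formation, read 627 and 690.0 in control cells against 113 and 116 in null cells (log2 change −2.39 ± 0.09, adjusted p = 2.44e-05), and Sned1, a matrix protein, read 152 and 111 in the controls and 20.1 and 18.2 in the null cells (log2 change −2.11 ± 0.28, adjusted p = 0.00128). Trh, the thyrotropin-releasing hormone precursor, read 1062 and 1087 in control cells against 301 and 293 in null cells (log2 change −1.81 ± 0.19, adjusted p = 0.000468). For these genes both Zfx-null arrays were at or below 301, while Zfx-flox arrays ranged from 111 to 1087. Gm20767 (−2.58 ± 0.22), the Speer family gene Speer4cos (−2.04 ± 0.27), the zinc finger gene Zfp746 (−2.02 ± 0.24), Gm7969 (−1.90 ± 0.21), Cfap410 (−1.79 ± 0.31), the glycerol phosphate acyltransferase Gpat2 (−1.73 ± 0.27), the membrane protease Hpn (−1.73 ± 0.28) and the myosin Myo1f (−1.73 ± 0.14) fell as well. Zap70 fell too (−1.96 ± 0.57, adjusted p = 0.0381), from 391 and 425 in control cells to 163 and 52.6 in null cells. Speer, Usp17l and some Gm genes belong to families of near-identical copies, so their probe sets may read more than 1 copy. Without a pseudocount Speer4cos (adjusted p = 0.0944) and Gpat2 (0.177) did not pass.

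The bright genes that fell included secreted factors of pluripotent cells. Tdgf1, the Nodal co-receptor Cripto, read 5789 and 5752 in control cells against 2586 and 2471 in null cells (log2 change −1.19 ± 0.13, adjusted p = 0.000478). Lefty1, a Nodal antagonist, read 5077 and 5227 in control cells against 2299.9 and 2371 in null cells (log2 change −1.14 ± 0.11, adjusted p = 0.000301), and Gdf3, a ligand of the same family, read 3347 and 3314 in control cells against 1585 and 1477 in null cells (log2 change −1.11 ± 0.10, adjusted p = 0.000273). All 3 fell from among the brightest signals of the arrays to less than 0.5 times that level. The long nuclear RNA Neat1 (−0.97 ± 0.13), the nucleoside transporter Slc29a1 (−1.18 ± 0.20), the fatty acid elongation enzyme Hacd2 (−0.95 ± 0.07) and the mitochondrial iron-sulfur protein Cisd1 (−0.92 ± 0.07) fell as well. Tdgf1 did not pass without a pseudocount (adjusted p = 0.214), nor Neat1 with the mean over all probe sets (−0.48, 0.119).

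**Figure D2:**
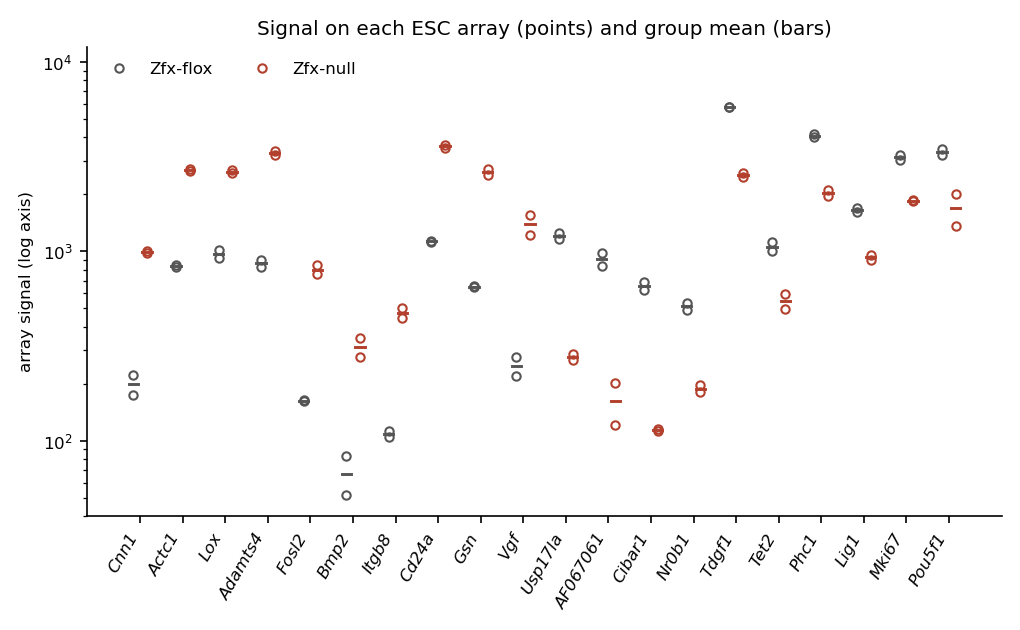
Array signal (log axis) of 20 genes on the 2 Zfx-flox and the 2 Zfx-null ESC arrays, points for arrays and bars for group means. The groups are apart for every gene shown, as for all genes past the threshold. The pair of arrays farthest apart is that of AF067061 in Zfx-null, at 121 and 202.

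Promoter sequence was set beside the calls, since Zfx binds near start sites. RefSeq promoters (GRCm38.p6, from 250 bases before to 50 after the start) were available for 22862 genes with a single promoter, of which 8123 were tested. Motifs were searched on both strands. The Zfx core AGGCCT, which reads the same on both strands, occurred in 10.3% of all promoters and in 10.5% of those of tested genes. It occurred in 12.1% of the promoters of lower genes and 17.9% of those at least 2-fold lower (19 of 106), and in 7.58% of those of higher genes and 5.97% of those at least 2-fold higher (16 of 268). The longer form AGGCCTAG, which holds the core, followed with 1.45% of lower and 0.624% of higher genes. These shares are a description, and most lower genes have no such match in this window.

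Other motifs differed in other ways. The CArG box, the site of serum response factor (SRF), occurred in 1.53% of all promoters, 1.27% of those of tested genes, 2.5% of higher and 1.03% of lower genes, and in 0 of the 106 at least 2-fold lower. The AP-1 site TGANTCA occurred in 7.98% of all promoters, 4.53% of those of tested genes, 5.35% of higher and 4.11% of lower genes. It occurred in 8.58% of those at least 2-fold higher (23 of 268) and 5.66% of those at least 2-fold lower (6 of 106). The NF-Y site CCAAT was found in 38.2% of all promoters, in 38.9% of those of tested genes, in 45% of lower and in 36.5% of higher genes. The E2F site TTTNGCGC was found in 1.35% of all promoters, 2.47% of those of tested genes and 4.19% of lower genes. Neither of these differences held among genes at least 2-fold lower, of which 38.7% had the NF-Y site and 0.943% (1 of 106) the E2F site. The median G and C content was 61% for tested, 63.3% for higher and 61.3% for lower genes.

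**Figure D3:**
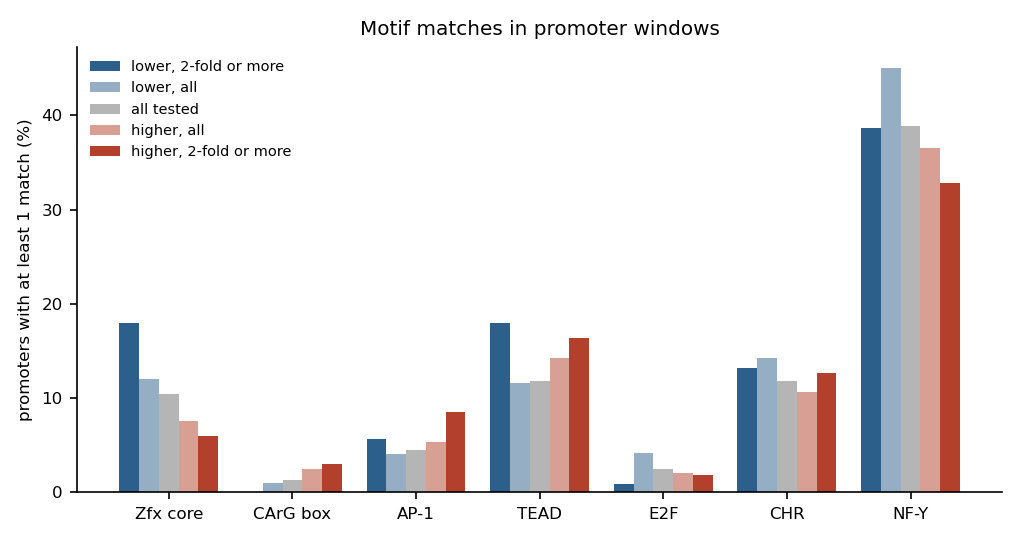
Share of promoters (% of genes with 1 RefSeq promoter) with at least 1 match to each motif, for genes at least 2-fold lower, all lower, all tested, all higher and at least 2-fold higher in Zfx-null ESC. The Zfx core goes from 17.9% among the strongest falls to 5.97% among the strongest rises, while the CArG box runs the other way on a small base.

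The 3 genes with the largest falls among those with the Zfx core in the 250 bases before the start and with every value above the pseudocount were AF067061, Cfap410 and Clcn2, a chloride channel gene (−1.48 ± 0.21; without a pseudocount its adjusted p was 0.0781). They were chosen for the core after their values were seen. Their sequences, 5′ to 3′ and ending at the base before the start, carry the core in capitals. They lie on GRCm38.p6 at chr13:120262845-120263094 (plus strand), chr10:77978400-77978649 (plus strand) and chr16:20716637-20716886 (minus strand). The core sits 63 bases before the start in AF067061, 8 in Cfap410 and 23 in Clcn2.
AF067061: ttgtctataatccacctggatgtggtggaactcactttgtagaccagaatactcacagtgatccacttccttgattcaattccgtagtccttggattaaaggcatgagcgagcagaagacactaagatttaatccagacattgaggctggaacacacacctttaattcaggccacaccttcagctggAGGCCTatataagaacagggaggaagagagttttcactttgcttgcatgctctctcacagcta
Cfap410: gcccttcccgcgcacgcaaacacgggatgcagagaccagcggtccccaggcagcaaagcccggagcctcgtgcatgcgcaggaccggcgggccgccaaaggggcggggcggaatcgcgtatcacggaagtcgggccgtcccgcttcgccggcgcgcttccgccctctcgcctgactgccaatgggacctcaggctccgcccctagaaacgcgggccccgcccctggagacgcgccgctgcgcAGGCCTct
Clcn2: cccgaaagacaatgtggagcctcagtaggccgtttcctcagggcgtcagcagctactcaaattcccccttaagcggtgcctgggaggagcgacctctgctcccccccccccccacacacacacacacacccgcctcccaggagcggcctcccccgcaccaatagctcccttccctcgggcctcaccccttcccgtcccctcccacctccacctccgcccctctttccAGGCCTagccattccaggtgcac

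Actin cytoskeleton genes had the largest share of higher members among the gene lists with at least 10 tested members. Of 33 tested smooth muscle and SRF target genes, 27 rose and none fell, against 14.9% and 14% of all tested genes, and their median change was 0.97 against −0.03. Cardiac actin Actc1 read 831 and 848 in control cells against 2657 and 2709.8 in null cells (log2 change 1.66 ± 0.13, adjusted p = 0.00013), and skeletal actin Acta1 read 944 and 815 in the controls and 2235 and 2201 in the null cells (log2 change 1.32 ± 0.10, adjusted p = 0.000126). Both muscle actins were expressed in control cells already. Filip1l, which binds filamin, rose from 271 and 266 to 909 and 895 (1.69 ± 0.13). Among the members that did not pass were the abundant cytoplasmic actins, Actb at 0.13 and Actg1 at 0.17, and the actin crosslinker Actn4 at −0.10. With quantile normalization Actb and Actg1 passed (log2 change 0.22 and 0.29), and Actg1 also with a replicate block (adjusted p = 0.0166). Of the 22 members with a single promoter, 7 (31.8%) hold a CArG box against 1.27% of tested genes. Of those 7 genes 5 rose, as did 14 of the 15 without the box. The list was compiled from genes known to answer SRF, so this share is not independent of it.

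The 4 members with the largest rises among those with a CArG box before the start were Actc1, Acta1, the myosin light chain gene Myl9 (1.25 ± 0.15) and calponin 2, Cnn2 (1.14 ± 0.09). They were chosen for the box after their values were seen. They lie on GRCm38.p6 at chr2:114052876-114053125 and chr8:123894776-123895025 on the minus strand and at chr2:156775214-156775463 and chr10:79988350-79988599 on the plus strand. The box is in capitals and starts 47, 73, 161 and 56 bases before the start.
Actc1: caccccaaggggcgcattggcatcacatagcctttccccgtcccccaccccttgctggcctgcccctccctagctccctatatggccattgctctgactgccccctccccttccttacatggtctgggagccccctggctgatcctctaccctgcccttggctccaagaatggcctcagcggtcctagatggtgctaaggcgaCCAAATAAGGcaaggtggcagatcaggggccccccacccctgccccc
Acta1: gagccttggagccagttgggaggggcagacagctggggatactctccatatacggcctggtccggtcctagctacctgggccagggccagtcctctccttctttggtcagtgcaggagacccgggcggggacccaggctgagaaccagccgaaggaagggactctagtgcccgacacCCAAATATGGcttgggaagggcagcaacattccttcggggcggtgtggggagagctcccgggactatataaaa
Myl9: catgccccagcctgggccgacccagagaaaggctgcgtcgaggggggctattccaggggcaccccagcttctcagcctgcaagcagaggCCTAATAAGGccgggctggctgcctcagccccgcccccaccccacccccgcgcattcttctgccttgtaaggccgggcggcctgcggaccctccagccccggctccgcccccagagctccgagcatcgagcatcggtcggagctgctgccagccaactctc
Cnn2: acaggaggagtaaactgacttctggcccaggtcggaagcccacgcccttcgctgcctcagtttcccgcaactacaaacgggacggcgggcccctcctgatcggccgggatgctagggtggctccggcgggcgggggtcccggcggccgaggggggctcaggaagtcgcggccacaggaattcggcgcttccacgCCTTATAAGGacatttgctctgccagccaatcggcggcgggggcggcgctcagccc

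Targets of the mechanosensitive cofactor YAP and its TEAD partners rose with them. Of 25 tested genes 16 rose and 1 fell, with a median of 0.72. Ankrd1, a muscle ankyrin repeat protein, read 409.9 and 394 in control cells against 1643 and 1606 in null cells (log2 change 1.98 ± 0.20, adjusted p = 0.000367), and the Hippo kinase Lats2, which restrains YAP and is also induced by it, read 179.8 and 221 in the controls and 684 and 684 in the null cells (log2 change 1.71 ± 0.10, adjusted p = 4.47e-05). The matricellular protein Ccn1 rose from 2432 and 2119.9 to 6005 and 5761 (1.37 ± 0.21), the growth factor-binding transmembrane protein Crim1 by 1.32 ± 0.14 and the receptor kinase Axl by 1.16 ± 0.18. Yap1 itself (0.17, adjusted p = 0.442) and Tead1 (0.30, adjusted p = 0.212) did not pass, although Tead1 did in a fit of the ESC arrays alone and with a replicate block (0.0339 in each). The TEAD core GGAATG was found in 8 of 15 promoters of the list (6 of these 8 genes rose, and 5 of the 7 without it). It was in 14.6% of all promoters and 11.9% of those of tested genes, and the list was compiled as targets of that factor. The core was in 14.3% of higher and 11.6% of lower genes. Among genes at least 2-fold changed it was in 16.4% of the higher (44 of 268) and 17.9% of the lower (19 of 106).

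Extracellular matrix genes were higher in nearly every class. Of 17 tested collagens 13 rose and none fell (median 0.96), of 36 laminins and other glycoproteins 17 rose and 1 fell (median 0.60), and of 19 collagen-modifying enzymes 7 rose and 1 fell (median 0.50). Basement membrane collagen Col4a5 read 665 and 619 in control cells against 2169.7 and 2013 in null cells (log2 change 1.68 ± 0.15, adjusted p = 0.00023), and its neighbour and partner Col4a6 read 93.7 and 101 in the controls and 309 and 347 in the null cells (log2 change 1.61 ± 0.18, adjusted p = 0.000558). Fibrillar collagen Col3a1 rose from 2611 and 2629.5 to 6024 and 6277 (1.23 ± 0.10). The proteoglycan Vcan (1.58 ± 0.16), the matricellular protein Ccn4 (1.65 ± 0.14) and the laminin chain Lama4 (1.94 ± 0.29) rose too, while fibronectin, Fn1, bright in both groups, did not pass (0.21) except with quantile normalization (adjusted p = 0.0272). The count of higher glycoprotein genes was 11 without null array 2 and with a smaller pseudocount, and 9 without a pseudocount, which left 8 collagens.

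Among enzymes that build and cut the matrix, rises were more frequent than falls. Lox, which crosslinks collagen, read 1014 and 924 in control cells against 2674 and 2584 in null cells (log2 change 1.43 ± 0.17, adjusted p = 0.000771), and Plod2, which hydroxylates collagen lysines, read 1634 and 1789 in the controls and 3499 and 3896 in the null cells (log2 change 1.10 ± 0.14, adjusted p = 0.000961). The procollagen protease Bmp1 rose by 1.42 ± 0.16 and the collagen chaperone Serpinh1 by 1.11 ± 0.11, whereas Crtap, a subunit of the prolyl hydroxylation complex, fell from 1958 and 2033 to 1098 and 1132 (log2 change −0.83 ± 0.10, adjusted p = 0.000698). Of 32 proteases and inhibitors 19 rose and 1 fell (median 0.74). The proteoglycan-cleaving protease Adamts4 read 903 and 827 in the controls and 3404 and 3234 in the null cells (log2 change 1.92 ± 0.33, adjusted p = 0.0042), and its relatives Adamts9 (1.79 ± 0.29), Adamts1 (1.59 ± 0.16) and Adamts5 (1.58 ± 0.16) rose as well. The inhibitor Timp1 did not pass (0.75, adjusted p = 0.0852), but did in a fit of the ESC arrays alone (0.00204) and without HSC Zfx-flox replicate 1 (0.0038) or replicate 2 (0.00429).

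Markers of fibroblasts moved with the matrix and cytoskeleton genes. Of 13 tested markers 7 rose and none fell (median 0.85). The summed signal of all 14 on the array was 14071 and 14308 in control cells against 24349 and 25795 in null cells. The list shares its collagens with the matrix lists. S100a4, a calcium-binding protein of motile cells, rose from 160.1 and 119 to 413 and 383 (1.43 ± 0.15) and Col1a1 from 1662 and 1532 to 3617 and 3851 (1.22 ± 0.17). The proteoglycan Dcn (0.35), the matrix protein Fbln1 (−0.63) and the surface protein Thy1 (0.38) did not pass. Fbln1 passed as lower in a fit of the ESC arrays alone (adjusted p = 0.0115) and without HSC Zfx-cko replicate 1 (0.0117) or replicate 2 (0.0103). No marker was at 0, and the collagens were bright in Zfx-flox ESC already. The part of such cells in the matrix and cytoskeleton rises was not tested.

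Adhesion genes changed in both directions. Of 16 tested integrins 7 rose and 1 fell (median 0.42). Itgb8, whose integrin frees latent TGF-beta, read 104 and 113 in control cells against 446 and 503 in null cells (log2 change 1.99 ± 0.24, adjusted p = 0.000834), and the laminin receptor Itga7 read 212 and 185 in the controls and 712 and 644 in the null cells (log2 change 1.70 ± 0.20, adjusted p = 0.000771). Itgb4, the hemidesmosome subunit, read 68.8 and 87.3 in the controls and 14.1 and 32.2 in the null cells (log2 change −1.34 ± 0.29, adjusted p = 0.0122). Its call was lost without control array 2 (0.0621), without null array 1 (0.0697) and without a pseudocount (0.133), which also took that of Itga7 (0.0717). Without null array 1 the count of higher integrins was 4. Of 43 cadherins, claudins and other junction proteins 19 rose and 7 fell (median 0.10), led by the delta-catenin Ctnnd2 (1.92 ± 0.21), Cd24a and the protocadherin Pcdh7 (1.57 ± 0.14). N-cadherin, Cdh2, on the list of formative and primed genes, rose from 1374 and 1321 to 3108 and 3457 (1.27 ± 0.10), and the epithelial adhesion molecule Epcam, at 2904 and 3079 in the controls and 1386 and 1390.3 in the null cells, did not pass (log2 change −1.10 ± 0.43, adjusted p = 0.102) but did in a fit of the ESC arrays alone (0.000925), with a replicate block (0.0393) and without HSC Zfx-flox replicate 1 (0.00083) or replicate 2 (0.000752). Without control array 1, null array 1 or null array 2 the count of lower junction genes was 4, as without a pseudocount, and it was 12 in a fit of the ESC arrays alone. Among 14 annexins and S100 proteins, which link membranes to calcium and actin, 9 rose and none fell (median 0.72), among them Anxa1 from 2692 and 2619 to 5951 and 5975 (1.16 ± 0.06) and Anxa5 from 1205 and 1298 to 3167 and 3294 (1.36 ± 0.08). With the mean over all probe sets of a gene Anxa1 did not pass (0.31, adjusted p = 0.101).

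**Figure D4:**
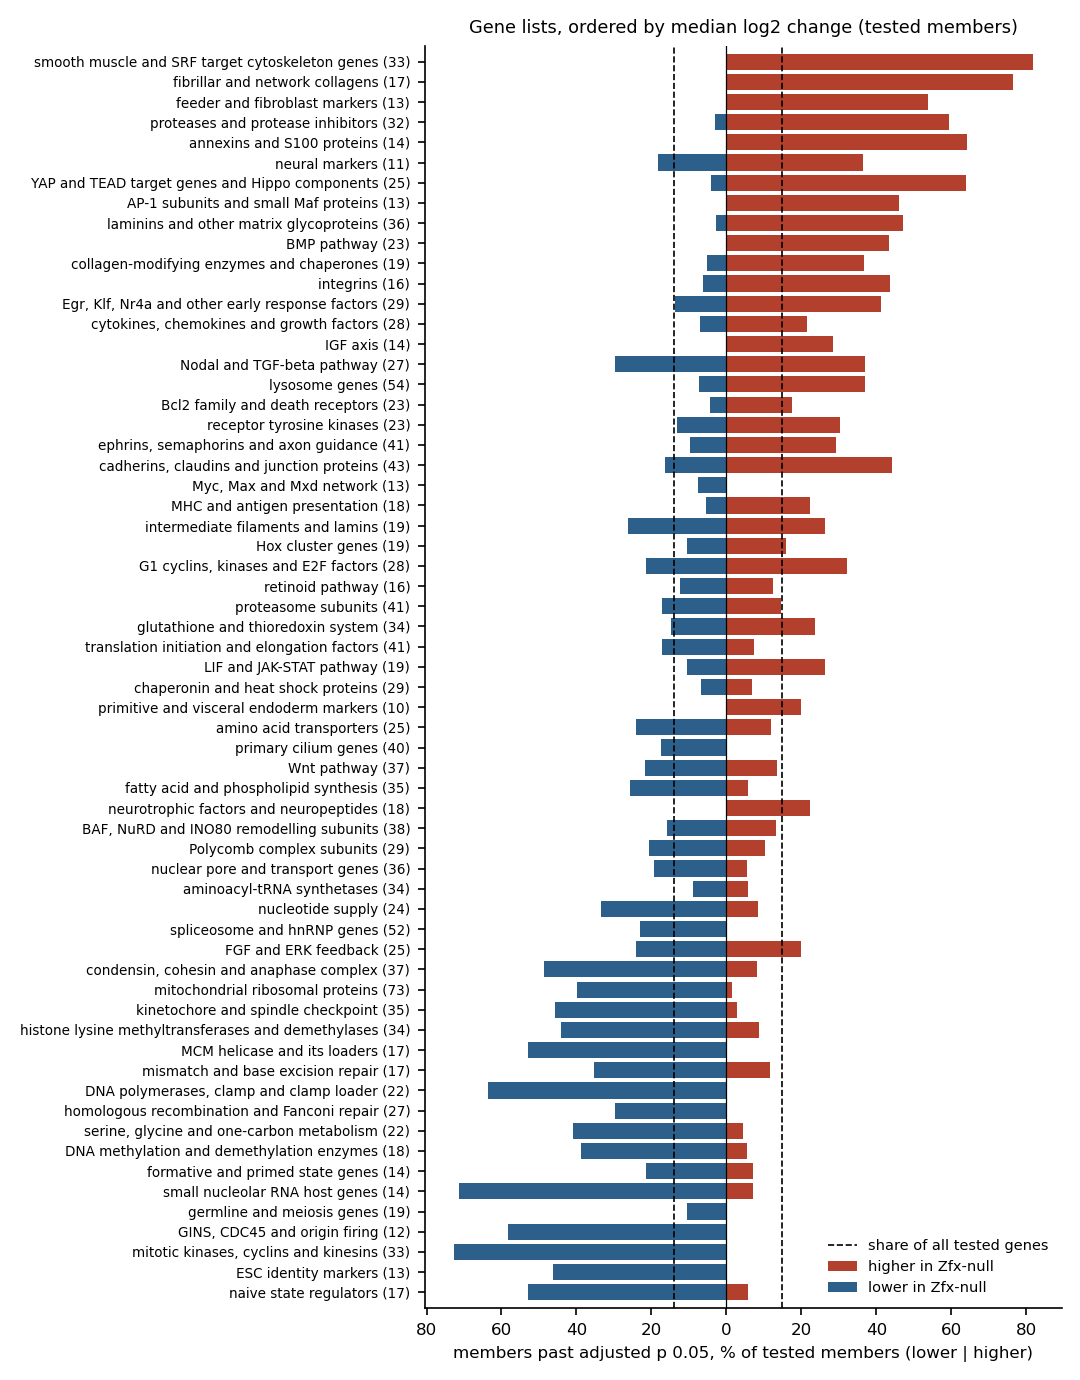
Share of tested members past an adjusted p of 0.05, higher (right) and lower (left), for each gene list with at least 10 tested members, ordered by median log2 change, with the tested number in brackets and dashed lines at 14.9% and 14% of all tested genes. Cytoskeleton, collagen, fibroblast marker and protease lists stand at the top, with neural markers close to them, and naive state, ESC identity and mitotic lists at the bottom.

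Signalling genes of the BMP branch were higher and those of the Nodal branch were split. Of 23 tested BMP genes 10 rose and none fell (median 0.55). The ligand Bmp2 read 51.5 and 82.8 in control cells against 278 and 348 in null cells (log2 change 2.02 ± 0.30, adjusted p = 0.00218), the antagonist Nog read 60.4 and 68.8 in the controls and 195 and 203 in the null cells (log2 change 1.44 ± 0.22, adjusted p = 0.00251), and the signal transducer Smad1 read 264 and 282 in the controls and 593 and 596 in the null cells (log2 change 1.09 ± 0.06, adjusted p = 4.56e-05). Ligand, antagonist and transducer all rose. The type I receptor Bmpr1a did not pass (−0.16). Of 27 Nodal and TGF-beta genes 10 rose and 8 fell. The falls included the Nodal co-receptor Tdgf1 and the antagonist Lefty2 (−1.67 ± 0.24), and the rises included the TGF-beta ligand Tgfb2 (from 648 and 502 to 1568 and 1322, 1.31 ± 0.19) and its latent binding protein Ltbp1 (1.29 ± 0.17). Without control array 2 the count of lower genes was 5, and with the mean over all probe sets of a gene that of higher genes was 6. Without a pseudocount 6 BMP genes rose, and Bmp2 (adjusted p = 0.126), Lefty2 (0.122) and Tdgf1 (0.214) did not pass.

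Growth factor feedback genes were split, while AP-1 subunits and other early response factors were higher more often than lower. Phlda1, induced by growth factors, read 642 and 591 in control cells against 2210.2 and 2258 in null cells (log2 change 1.84 ± 0.10, adjusted p = 3.91e-05). The phosphatases Dusp5, which acts on ERK in the nucleus, and Dusp1, which acts on stress kinases, rose by 1.5 ± 0.14 and 1.43 ± 0.19, while Dusp6, the cytoplasmic ERK phosphatase, did not pass (0.06) and the ligand Fgf17 fell (−1.17 ± 0.20). Over the 25 genes of the FGF and ERK list 5 rose and 6 fell, and without control array 2 or null array 1 the count of lower genes was 3. Of 13 AP-1 subunits and small Maf proteins 6 rose and none fell (median 0.69), including Jun from 257 and 171 to 607 and 613 (1.48 ± 0.17), its repressor partner Jdp2 (1.58 ± 0.11) and Fos (0.83 ± 0.11). Jund (−0.05) and Mafg (−0.16) did not pass. Of 29 other early response factors 12 rose and 4 fell (median 0.32), such as Ier5 (1.44 ± 0.12) and the small GTPase Rhob (1.24 ± 0.08), while Myc did not pass (0.27, adjusted p = 0.0542). Myc passed without control array 1 (0.0291), with a filter at the 60th percentile (0.0412) and with the mean over all probe sets (0.0468). The count of lower early response factors was 1, 2, 1 and 1 without control array 1, control array 2, null array 1 or null array 2.

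The genes of the naive state were mostly lower. Of 17 tested members 9 fell and 1 rose (median −0.84). The orphan receptor Nr0b1 read 532 and 492 in control cells against 196 and 181 in null cells (log2 change −1.37 ± 0.19, adjusted p = 0.00175), and the homeobox factor Gbx2 read 762 and 728 in the controls and 360.0 and 301 in the null cells (log2 change −1.14 ± 0.15, adjusted p = 0.00123). Zfp42, a marker of the naive state, did not pass (−0.49), nor did Dppa3 (−0.12). Without control array 1, control array 2, null array 1 or null array 2 the count of lower genes was 4, 5, 5 and 4, and it was 5 without a pseudocount, where Nr0b1 did not pass (adjusted p = 0.112). Zfp42 passed as lower in a fit of the ESC arrays alone (0.00798) and without HSC Zfx-cko replicate 1 (0.0418) or replicate 2 (0.0404). Of 14 formative and primed genes 3 fell and 1 rose (median −0.38). Otx2, a factor of that state, did not pass (−0.25), and Etv5 fell from 2183 and 2063 to 1444 and 1391 (−0.58 ± 0.09).

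Genes of the 2-cell-like state, a rare state of ESC cultures that resembles the early embryo, fell more than any other list. Of 7 tested members 6 fell and none rose, with a median of −1.53. AF067061 read 979.6 and 839 in control cells against 121 and 202 in null cells (log2 change −2.43 ± 0.25, adjusted p = 0.000422), BC080696 read 388 and 403 in the controls and 61.4 and 66.4 in the null cells (log2 change −2.39 ± 0.22, adjusted p = 0.000273), and the deubiquitinase gene Usp17la read 1256 and 1163 in the controls and 268 and 288 in the null cells (log2 change −2.07 ± 0.27, adjusted p = 0.00129). The zinc finger gene Zfp352 fell from 169 and 188 to 55.5 and 49.3 (−1.53 ± 0.25) and the arginase Arg2 from 133 and 168 to 38.6 and 52.1 (−1.47 ± 0.24). Only Dppa4, which acts upstream of that state, did not pass (−0.54, adjusted p = 0.0681). It passed with quantile normalization (0.0354), in a fit of the ESC arrays alone (0.00469), with a replicate block (0.00924) and without HSC Zfx-flox replicate 1 (0.0192) or replicate 2 (0.0187). Apart from Dppa4, which is also on the list of ESC identity markers, these genes are known as expressed by few cells of such cultures. The number of such cells was not measured. Of 19 germline genes 2 fell (10.5%, against 14% of all tested genes) and none rose. One of them, the sperm protein gene Spesp1, went from 219 and 204 to 14.7 and 2.73.

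**Figure D5:**
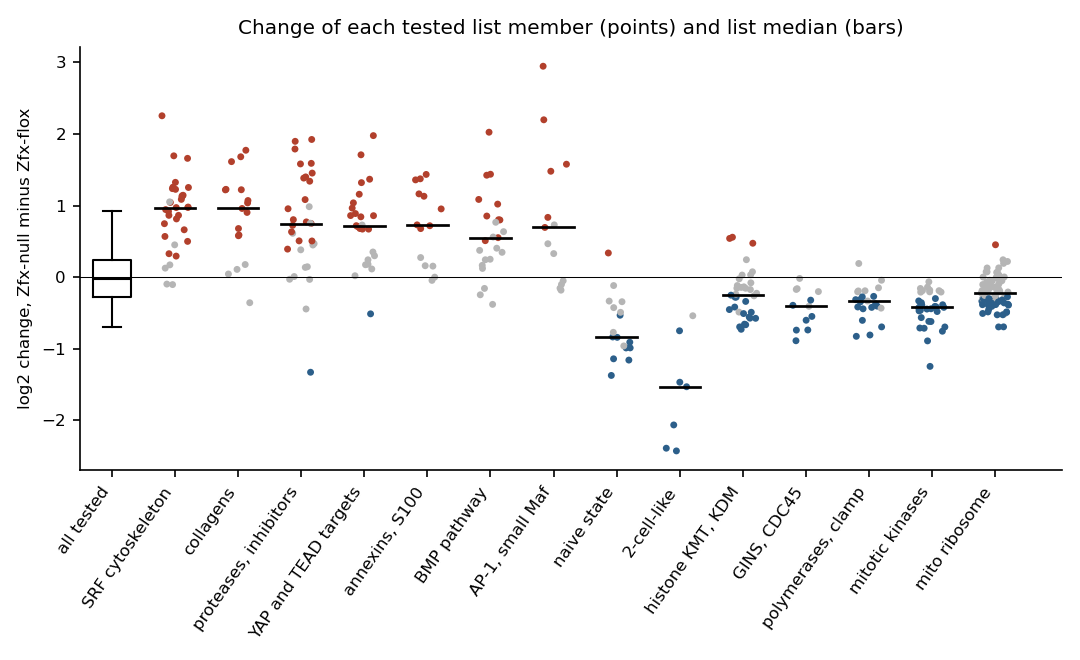
Log2 change (Zfx-null minus Zfx-flox) of every tested member of 14 lists, coloured when past an adjusted p of 0.05, with the list median as a bar and, at the left, a box for all tested genes (quartiles, whiskers at the 5th and 95th percentiles). Members of the 2-cell-like list reach −2.43, and each member of the mitotic kinase list lies below 0.

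Genes of DNA methylation and histone methylation fell more often than they rose, while chromatin remodelling subunits did not differ in this way. Of 38 tested BAF, NuRD and INO80 subunits 5 rose (13.2%) and 6 fell (15.8%), against 14.9% and 14% of all tested genes. Their count of higher genes was 2 in a fit of the ESC arrays alone and 3 without null array 2, and without the variance trend 3 were higher and 2 lower. Of 18 DNA methylation and demethylation genes 7 fell and 1 rose (median −0.36). The 5-methylcytosine oxidases Tet2 and Tet1 read 999.8 and 1115 in control cells against 497 and 596 in null cells (log2 change −0.94 ± 0.15, adjusted p = 0.00289) and 4379 and 4529 in the controls and 2684 and 2772 in the null cells (log2 change −0.70 ± 0.09, adjusted p = 0.00122), respectively. The de novo methyltransferase Dnmt3a (−0.55 ± 0.10) and Uhrf1, which guides maintenance methylation (−0.51 ± 0.09), fell as well. The methyl-binding protein Mbd2 rose (0.58 ± 0.07). Without the variance trend the count of lower genes was 4.

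Polycomb subunits were split. Of 29 tested, 6 fell (20.7%, against 14% of all tested genes) and 3 rose (10.3%, against 14.9%). Phc1, a subunit of the PRC1 complex, read 4142 and 4023 in control cells against 2101 and 1963 in null cells (log2 change −1 ± 0.07, adjusted p = 6.87e-05), its chromobox partner Cbx7 read 986 and 1049 in the controls and 529 and 512 in the null cells (log2 change −0.95 ± 0.10, adjusted p = 0.000471), and the PRC2 accessory factor Jarid2 read 5491 and 5338 in the controls and 3122 and 3048 in the null cells (log2 change −0.81 ± 0.05, adjusted p = 6.08e-05). Each of these fell, whereas the PRC2 core histone binders Rbbp4 (−0.06) and Rbbp7 (0.12) did not pass, the latter except with quantile normalization (adjusted p = 0.0385). Yaf2 (0.76 ± 0.10) and Pcgf5 (0.58 ± 0.09), subunits of variant PRC1 complexes, rose. Of 34 histone lysine methyltransferases and demethylases 15 fell and 3 rose (median −0.25). Ash2l, the shared subunit of the H3K4 methyltransferases, fell from 3058 and 3029.6 to 1953 and 1715 (−0.73 ± 0.07), and their catalytic subunits Kmt2c (−0.70 ± 0.08) and Kmt2b (−0.66 ± 0.09) fell too. Kdm3a, an H3K9 demethylase, fell by a like amount (−0.67 ± 0.09). The count of lower genes was 7 without control array 1, 9 without null array 2 and 8 without the variance trend.

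Replication genes fell in small steps along the whole pathway. Of 17 tested helicase and loader genes 9 fell (median −0.26), of 12 origin firing genes 7 fell (median −0.40), and of 22 polymerase, clamp and clamp loader genes 14 fell (median −0.34), with none higher in any of the 3 lists. Lig1, which joins Okazaki fragments, read 1705 and 1617 in control cells against 906 and 952 in null cells (log2 change −0.83 ± 0.09, adjusted p = 0.000452). Pola2, a subunit of the priming polymerase, read 495 and 483 in the controls and 272 and 274 in the null cells (log2 change −0.81 ± 0.09, adjusted p = 0.000607), and the GINS subunit Gins2 read 878 and 686 in the controls and 423 and 498 in the null cells (log2 change −0.74 ± 0.13, adjusted p = 0.00456). The helicase loader Cdt1 (−0.47 ± 0.06), the initiation factor Mcm10 (−0.61 ± 0.09), the checkpoint scaffold Topbp1 (−0.55 ± 0.06), the delta polymerase subunit Pold2 (−0.70 ± 0.09), the clamp loader Rfc5 (−0.61 ± 0.06) and the single-strand binding protein Rpa1 (−0.44 ± 0.05) fell too. The helicase subunits Mcm2 (−0.20) and Mcm4 (−0.16) and the GINS subunit Gins4 (−0.17) did not pass. Mcm2 passed as lower with the probe set brightest in ESC (−0.45, adjusted p = 0.00155), with the mean over all probe sets (0.00378), with a replicate block (0.0385) and without null array 2 (0.037), and Mcm10 did not pass with the mean over all probe sets (0.0761). Without control array 2 the helicase list had 5 lower genes. Without the variance trend the helicase and polymerase lists had 4 and 5.

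Repair and nucleotide genes were lower as well. Of 27 recombination and Fanconi genes 8 fell and none rose (median −0.35), with the helicase Blm from 958 and 1023 to 549 and 603 (−0.77 ± 0.07), the translocase Rad54l (−0.73 ± 0.07) and the tumour suppressor Brca2 (−0.71 ± 0.06). Of 17 mismatch and base excision genes 6 fell and 2 rose. The mismatch sensor Msh6 fell (−0.58 ± 0.06) and so did the uracil glycosylase Ung (−0.57 ± 0.07), while the repair polymerase Polb rose (0.56 ± 0.08). Of 24 nucleotide supply genes 8 fell and 2 rose, with deoxycytidine kinase Dck, of the salvage route, higher (0.70 ± 0.08). Without control array 2 and also without the variance trend the repair list had 3 lower genes, and without the variance trend the nucleotide list had 2, or 5 with the mean over all probe sets.

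Mitotic genes were lower, with log2 changes from −1.25 to −0.07 over the kinases, cyclins and kinesins. Of 33 tested mitotic kinases, cyclins and kinesins 24 fell and none rose (median −0.42), and each of the 33 had a negative log2 change. Aurkc, an Aurora kinase best known from germ cells, read 446 and 481 in control cells against 206 and 169 in null cells (log2 change −1.25 ± 0.19, adjusted p = 0.00267), the kinesin Kifc1 read 1803 and 1583 in the controls and 914 and 894 in the null cells (log2 change −0.89 ± 0.12, adjusted p = 0.00162), and the proliferation antigen Mki67 read 3047 and 3236 in the controls and 1839 and 1866 in the null cells (log2 change −0.76 ± 0.06, adjusted p = 0.000133). Plk1, the master mitotic kinase, did not pass (−0.16, adjusted p = 0.398). Of 35 kinetochore and checkpoint genes 16 fell and 1 rose (median −0.23), led by the cohesin protector Sgo1 (−0.76 ± 0.07), the centromeric histone Cenpa (−0.76 ± 0.06) and the kinetochore protein Zwilch (−0.75 ± 0.06). Of 37 condensin, cohesin and anaphase genes 18 fell and 3 rose (median −0.21), with the separase Espl1 at −0.67 ± 0.12 and the cohesin loader Nipbl at −0.55 ± 0.07. The mitotic list had 15 lower genes without control array 2 and 11 without the variance trend, which left 10 on the kinetochore list. The condensin list had 8, 11, 10 and 8 without control array 1, control array 2, null array 1 or null array 2, 11 with median centring and with no filter, and 5 without the variance trend.

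The CHR element TTTGAA, a site of late cell cycle promoters, was found in 17 of 24 promoters of the mitotic list (70.8%), against 18.5% of all promoters and 11.8% of those of tested genes. Of these 17 genes 12 fell, as did 5 of the 7 without it. It was also found in 14.3% of lower and 10.6% of higher genes. The list was compiled from late cell cycle genes, so its share is not independent of the element. The 4 members with the largest falls among those with the element before the start were Mki67, the mitotic kinase Cdk1 (−0.62 ± 0.05), cyclin B2, Ccnb2 (−0.62 ± 0.09), and the DNA topoisomerase Top2a (−0.57 ± 0.06), chosen for the element after their values were seen. They lie on GRCm38.p6 at chr7:135716380-135716629, chr10:69352913-69353162, chr9:70421555-70421804 and chr11:99024190-99024439, all on the minus strand, with the element or its reverse complement in capitals.
Mki67: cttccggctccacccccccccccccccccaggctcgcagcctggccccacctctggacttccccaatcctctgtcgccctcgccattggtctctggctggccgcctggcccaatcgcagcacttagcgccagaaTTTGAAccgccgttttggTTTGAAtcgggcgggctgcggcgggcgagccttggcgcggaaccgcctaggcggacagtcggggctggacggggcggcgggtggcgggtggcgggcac
Cdk1: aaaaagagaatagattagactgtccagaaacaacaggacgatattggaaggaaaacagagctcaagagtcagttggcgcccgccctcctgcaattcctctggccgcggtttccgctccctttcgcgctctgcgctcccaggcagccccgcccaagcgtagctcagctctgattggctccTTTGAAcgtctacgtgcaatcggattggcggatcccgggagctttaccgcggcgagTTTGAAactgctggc
Ccnb2: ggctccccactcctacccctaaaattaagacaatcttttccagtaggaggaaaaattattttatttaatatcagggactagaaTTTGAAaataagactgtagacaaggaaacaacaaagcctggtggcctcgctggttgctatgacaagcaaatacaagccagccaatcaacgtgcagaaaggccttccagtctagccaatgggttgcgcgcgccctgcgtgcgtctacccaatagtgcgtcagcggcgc
Top2a: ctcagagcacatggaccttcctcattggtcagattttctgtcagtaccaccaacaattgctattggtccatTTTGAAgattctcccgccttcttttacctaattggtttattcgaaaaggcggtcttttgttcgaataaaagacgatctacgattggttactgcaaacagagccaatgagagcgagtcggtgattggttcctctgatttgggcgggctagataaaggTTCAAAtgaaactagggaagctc

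G1 genes changed in both directions. Of 28 tested 9 rose and 6 fell, with a median of −0.00. Cyclin D2, Ccnd2, rose from 1213 and 1209.6 to 2597 and 2408 (1.04 ± 0.06) and its kinase partner Cdk6 from 501 and 503 to 959 and 998 (0.94 ± 0.05), while cyclin E1, Ccne1, which drives entry into S phase, fell from 2258 and 1725 to 1240.3 and 904 (−0.89 ± 0.16). The kinases Cdk2 (−0.07) and Cdk4 (−0.12) did not pass. The count of higher genes was 4 without control array 1, null array 1 or null array 2, and without the variance trend 4 were higher and 1 lower.

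Genes of mitochondrial translation were slightly lower. Of 73 tested mitochondrial ribosomal proteins 29 fell and 1 rose (median −0.22), with Mrps16 at 1624 and 1651 in the controls and 997 and 1014 in the null cells (log2 change −0.70 ± 0.06, adjusted p = 0.000139) and Mrps15 at −0.53 ± 0.07. A negative log2 change was measured in 60 members and a positive one in 13, and no member fell 2-fold. The count of lower genes was 15 without control array 1, 18 without control array 2, 17 without null array 2 and 9 without the variance trend. Of 14 host genes of small nucleolar RNAs, which guide the modification of ribosomal RNA, 10 fell and 1 rose (median −0.38, 6 lower without the variance trend), with Snhg3 from 2272 and 2108 to 1368 and 1169 (−0.78 ± 0.08) and Gas5 from 4249 and 3940.0 to 2758 and 2924 (−0.52 ± 0.06). The nuclear pore gene Nup210 fell from 867 and 909.9 to 360.1 and 367 (log2 change −1.26 ± 0.07, adjusted p = 3.7e-05), far more than the median of its list of 36 (−0.14).

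Serine, glycine and one-carbon genes, which supply nucleotides and methyl groups, fell in 9 of 22 cases and rose in 1 (median −0.36, 5 lower without the variance trend). Gldc, the glycine decarboxylase, read 1479 and 1872 in control cells against 644 and 902 in null cells (log2 change −1.11 ± 0.19, adjusted p = 0.00427), and Cth, which makes cysteine, read 645 and 602 in the controls and 350.5 and 314 in the null cells (log2 change −0.88 ± 0.12, adjusted p = 0.00133). The hydroxymethyltransferase Shmt1 fell too (−0.57 ± 0.08). The first enzymes of serine synthesis did not pass, Phgdh at −0.05 and Psat1 at −0.25. Psat1 passed as lower with quantile normalization (adjusted p = 0.0447), the mean over all probe sets (0.0147), a replicate block (0.018) and without null array 1 (0.0121). Among amino acid transporters the arginine carrier Slc7a3 (−0.79 ± 0.09) and the large neutral carrier Slc7a5 (−0.77 ± 0.12) fell, and among lipid genes the elongase Elovl6 (−0.84 ± 0.07).

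Where a gene had several probe sets, most changed in the same direction. The 3665 called genes had 3659 further tested probe sets, on 2046 genes, of which 3289 (89.9%) changed in the gene's direction and 1466 (40.1%) passed the test that way. In 13 genes a probe set passed in the opposite direction. Among them were Dbndd2 (0.86 against −1.05), BC052688 (0.61 against −0.99), Zkscan1 (−0.65 against 0.52), Zfp451 (−0.87 against 0.50) and Zmynd8 (0.49 against −0.58). The direction of these genes depends on the probe set. With the mean over all probe sets, several genes named here still passed in the same direction with a smaller change, by over 1.5 times. Among regulators these were Zfp711 (1.31), Fosl2 (1.25), Maf (1.16), Jdp2 (0.84), Lats2 (0.70) and Axl (0.54). Among matrix and membrane genes they were Gsn (1.16), Ptx3 (1.18), Adamts9 (1.17), Adamts5 (1.04), Cav2 (0.89), Lama4 (0.87), Dpysl2 (0.83), Ltbp1 (0.63) and Vcan (0.62). The others were Polb (0.30), Nup210 (−0.62), Cfap410 (−0.94) and Spesp1 (−1.88), while Dnmt3a fell more with the probe set brightest in ESC (−0.89).

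Neighbouring genes did not move as large blocks. With the tested genes ordered along the RefSeq assembly and divided into 244 blocks of 50, the block medians ranged from −0.30 to 0.26, and with blocks of 25 from −0.37 to 0.44. Short runs of adjacent called genes occurred in both directions. A run of 8 lower genes reached from Ifitm2 to Ptdss2 and held the interferon-induced membrane proteins Ifitm1 (−0.34 ± 0.05), Ifitm2 (−0.47 ± 0.08) and Ifitm3 (−0.43 ± 0.09). A run of 7 higher genes held Mdfic (1.21 ± 0.10), the focal adhesion gene Tes (1.21 ± 0.15), Cav2, its partner Cav1 (1.57 ± 0.49, adjusted p = 0.0497), the receptor kinase Met (1.05 ± 0.20), the actin capping subunit Capza2 (0.37 ± 0.06) and St7 (1.40 ± 0.16). Cav1 did not pass when any 1 ESC array was left out (adjusted p = 0.112 to 0.209 without null array 2 and null array 1, 0.138 and 0.181 without control array 2 and control array 1), nor with a smaller pseudocount (0.174) or none (0.318), no filter (0.0746), the mean over all probe sets (0.0535), a replicate block (0.0783) or no variance trend (0.112). The last of these also took the calls of Capza2 (0.0668), Ifitm1 (0.0687) and Ifitm3 (0.0711), and that of Ifitm3 was lost without control array 1 too (0.0572). The genes of these runs were chosen after their values were seen.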

How the data were processed

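RNA of 8 samples was read on Affymetrix Mouse Genome 430 2.0 arrays. The deposited values are linear intensities that the authors made with GCOS 1.4, per the submitters' processing notes, scaled alike on every array, where the mean after trimming 2% at each end was 250. Here, log2(intensity + 14.2), the 25th percentile, was fitted for 45037 probe sets with limma 3.58.1 (R 4.3.3) as 4 group means, with a variance trend and 4 residual degrees of freedom. P-values were adjusted (Benjamini-Hochberg) over 27022 probe sets above the 40th percentile of ESC signal, 39.1. Of all probe sets 34945 have 1 gene symbol, 932 several and 9160 none. A gene was read by its probe set brightest over 8 arrays. The number of arrays limits the precision. Members and lists were chosen with earlier results of these data known. Named genes were drawn from the 15 with the largest changes each way, the 10 among abundant genes and switched genes. The 15 were sought among called genes whose groups did not overlap and whose ESC values all lay above the pseudocount. Others were up to 5 past the threshold and 3 others per list, and genes with disagreeing probe sets. Not every gene that met these rules was named. Mgp, Zap70 and Nanog are not in the count below of named genes that kept the call. Alternatives covered pseudocount, scaling, filter, probe set choice, fit, block and each array left out.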

Additional observations from a re-analysis of the deposited data

How the results depend on the processing

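Counts of higher and lower genes stayed within 1.5 times those reported under each alternative except 3, all for the lower genes: 933 without the variance trend of the limma fit (with 1293 higher), 1055 without ESC Zfx-flox replicate 1 and 1116 without ESC Zfx-flox replicate 2, and the cause was not tested. Leaving out each array in turn gave 1333 to 1775 higher and 1055 to 1611 lower genes. With the replicate number as a block, 2182 genes were higher and 2189 lower. The numbers are not known to pair the arrays: deviations of same-numbered ESC arrays from their group means correlated at 0.319 over 27022 probe sets, with only 2 pairs. 3 genes with disagreeing probe sets reversed: Zmynd8 (−0.58 with the probe set brightest in ESC, −0.083 with the mean over probe sets), BC052688 (−0.19 with the mean) and Dbndd2 (−0.063 with the mean). Dim genes limit what can be seen: the median standard error was 0.263 among the dimmest of 5 equal groups of genes. Without the variance trend 1264 of the 1894 higher and 899 of the 1771 lower genes kept their call. The tally that follows covers genes mostly picked for large changes in these data, so it does not stand for all called genes. Of 187 genes named with an adjusted p under 0.05, 163 kept the call and direction under every alternative that tested them, 149 of them under all 19 and 14 under 18, since the filter at the 60th percentile left these 14 out. When a single array was left out, 7 lost the call.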

Other observations

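Guidance cues and growth factor receptors were more often higher than lower in Zfx-null ESC. Of 41 tested ephrins, semaphorins and axon guidance genes 12 rose and 4 fell, against 14.9% and 14% of all tested genes, with a median log2 change of 0.12. The secreted cue Slit2 read 278 and 299.9 in control cells against 748 and 723 in null cells (log2 change 1.31 ± 0.15, adjusted p = 0.000705), the semaphorin Sema3d read 77.1 and 62.9 in the controls and 199 and 212 in the null cells (log2 change 1.39 ± 0.20, adjusted p = 0.00212), and the ephrin receptor Epha7 changed by 1.57 ± 0.15. The count of lower guidance genes was 1 without control array 1 or control array 2, with a smaller pseudocount and without one, and 2 without null array 1 or null array 2. Of 23 receptor tyrosine kinases 7 rose and 3 fell (median 0.17), with the PDGF receptor Pdgfrb at 1.01 ± 0.11 and the angiopoietin receptor Tek at 1.29 ± 0.19. Of 14 genes of the IGF axis 4 rose and none fell (median 0.25), among them the receptor Igf1r (1.46 ± 0.08) and its adaptor Irs1 (1.11 ± 0.21).

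Lysosome genes rose in 20 of 54 cases and fell in 4 (median 0.22). The cathepsins Ctso and Ctsc rose by 1.36 ± 0.11 and 1.18 ± 0.06, and the membrane protein Lamp2 rose from 855 and 683 to 1796 and 1566 (1.12 ± 0.12). The count of higher lysosome genes was 12 without control array 1, 13 without null array 2 and 8 without the variance trend. Of 34 genes of the glutathione and thioredoxin system 8 rose and 5 fell. The metallothioneins Mt1 and Mt2, which bind zinc, read 928 and 994 in control cells against 2302 and 2786 in null cells (1.39 ± 0.09) and 2328 and 2998 in the controls and 3925 and 4338 in the null cells (0.64 ± 0.11). The count of higher genes of that list was 5 without null array 1, and that of lower genes was 3 without control array 1 and in a fit of the ESC arrays alone. Of 18 MHC and antigen presentation genes 4 rose and 1 fell (median 0.06), with the light chain B2m read at 1828 and 1836 in the controls and 4004 and 4905 in the null cells (log2 change 1.27 ± 0.09, adjusted p = 0.000102) and the class I gene H2-Bl at −1.49 ± 0.21. The class I genes share sequence, so their probe sets may read more than 1 gene.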
